A study of Mus musculus with 7 samples.

Results

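The genes described here are those whose symbol is Psma, Psmb, Psmc, Psmd, Psme, Psmf or Psmg followed by a digit, which together encode most of the proteasome, its activators and its assembly factors. Of 20294 genes with a symbol in the deposited table, 50 match, and each is read from its transcript of highest mean value. Proteasome genes make up 48 of them. Psmc3ip, a partner of meiotic recombinases, and Psme3ip1, a protein that binds the activator Psme3, match by letters alone. RNA was sequenced from E14, an established line of mouse embryonic stem cells, in 2i medium, which keeps such cells naive by kinase inhibition. All libraries, the 0 h library included, come from cells that carry a Brn2-RFP GAVPO cassette, in which a light-switched factor drives the neural POU factor Brn2 together with a red fluorescent protein. LED light at 300 µW was given for 0, 2, 4, 6, 14, 24 or 48 h, with 1 library at each time, so every time named below stands for a single library and no library of cells without the cassette is analysed here.

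The proteasome degrades proteins marked with ubiquitin. Its 20S core is a barrel of alpha rings, which gate the entry, around beta rings, which hold the proteolytic sites of Psmb5, Psmb6 and Psmb7. The 19S particle caps the barrel: a base with the Psmc ATPases unfolds substrates, and a lid with the deubiquitinase Psmd14 removes the ubiquitin chain. In cells exposed to interferon, and constitutively in many blood cells, Psmb8, Psmb9 and Psmb10 take the places of Psmb5, Psmb6 and Psmb7 and form the immunoproteasome. Psme1 and Psme2 form an interferon-inducible activator that binds the core in place of the 19S particle.

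Ratios of the 6, 14 and 48 h libraries to 0 h went with the base composition of these genes, as described below, so 4 coding starts from both ends of its range are shown. Psmc6, a base ATPase, has the lowest GC content of the transcripts with a mean value of at least 1 (37.0%), and Psma3, an alpha-ring subunit, has 40.8%. Psmd3, a lid subunit, has the highest (58.3%), and the catalytic subunit Psmb5 has 56.6%. The first 120 coding bases from the ATG are given from GENCODE transcripts on GRCm38, with G and C in capitals; the genes lie at chr14:45329788-45349705 (plus strand), chr12:70974621-70996347 (plus), chr11:98682554-98695979 (plus) and chr14:54614119-54618022 (minus).
Psmc6: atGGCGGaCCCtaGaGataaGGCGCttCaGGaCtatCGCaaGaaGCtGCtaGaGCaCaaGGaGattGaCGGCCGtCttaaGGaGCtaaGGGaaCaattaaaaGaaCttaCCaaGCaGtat
Psma3: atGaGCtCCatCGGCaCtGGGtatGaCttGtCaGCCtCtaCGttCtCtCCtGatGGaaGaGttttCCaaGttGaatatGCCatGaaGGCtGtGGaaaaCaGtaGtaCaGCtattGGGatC
Psmd3: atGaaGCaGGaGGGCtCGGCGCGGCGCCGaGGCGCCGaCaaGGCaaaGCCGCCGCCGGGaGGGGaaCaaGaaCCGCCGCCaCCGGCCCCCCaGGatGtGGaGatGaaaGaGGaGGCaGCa
Psmb5: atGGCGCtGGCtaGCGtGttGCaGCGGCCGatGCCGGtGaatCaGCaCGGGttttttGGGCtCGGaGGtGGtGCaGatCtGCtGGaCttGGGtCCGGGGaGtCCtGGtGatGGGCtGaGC
These stretches hold 47.5%, 46.7%, 70.0% and 63.3% G and C in that order, and the whole coding sequences 41.8%, 42.4%, 57.4% and 57.8%.

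Each deposited number could be read as reads divided by the length of the gene with its introns and by library size, from 14.84, 7.61, 7.04, 13.64, 9.09, 9.95 and 16.09 M reads (M for mega) in order of time. "Value" below means this deposited number, which is low for genes with long introns and compares 1 gene between libraries. "Level" means the recovered reads per kilobase of spliced transcript and M reads, which compares genes, and is approximate where intron reads or an annotated long 3′ end enter it. A mean value of at least 1 was reached by 46 of the 50 genes; Psma8, Psmb8, Psmb9 and Psmd10 stayed below it. The 6 stem cell markers (Pou5f1, Sox2, Nanog, Zfp42, Klf4 and Esrrb) were present throughout, with a summed value of 357 to 491. The summed value of 6 neuronal markers went from 10.8 at 0 h to 120 at 48 h, that of 8 fibroblast markers from 0.602 at 0 h to its highest, 3.32, at 48 h (Col1a2 from 0.0450 to 2.16), and that of 5 blood markers lay between 1.95 and 7.70. Laptm5 made up most of the blood sum, while Ptprc, which defines blood cells, was at most 0.00536; none of the listed markers was at 0 in every library. Whether these shifts have a part in the results below was not tested, and in bulk RNA fewer cells of a type cannot be told apart from less RNA per cell.

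All 31 constitutive subunits of the core and the 19S particle were expressed in every library. Their mean levels ran from 44.5 for Psmc6 to 389 for the beta-ring subunit Psmb3, and the median level was between 101 (48 h) and 146 (14 h). Psmb3 was the highest in each of the 7 libraries, from 313 at 14 h to 567 at 6 h, and its lowest level lay above the highest of any other subunit (303, Psmb2 at 48 h). The lowest subunit changed from library to library between Psmc6, Psmd2, Psmd6 and Psma3. The median of the mean levels was 119 for the alpha subunits Psma1 to Psma7, 194 for the beta subunits Psmb1 to Psmb7, 137 for the ATPases and 90.2 for the lid. Forms tied to other tissues stood far lower: Psma8, the alpha subunit of male germ cells, at a mean level of 5.38, and Psmb11, the beta subunit of the thymus, at 3.28.

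**Figure D1:**
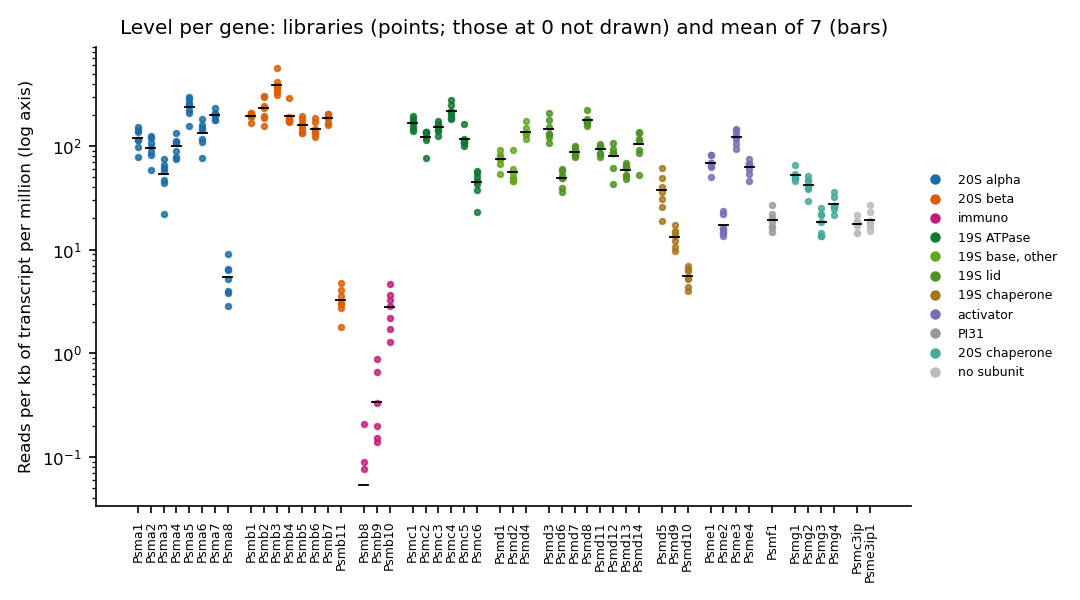
Reads per kilobase of transcript and M reads (log axis) for the 50 genes, coloured by role; each point is 1 library, bars are means over the 7 libraries, and libraries at 0 are not drawn. The constitutive core and 19S subunits lie between mean levels of 44.5 and 389, and Psmb8, Psmb9 and Psmb10 lie below 5 in every library.

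The catalytic subunits of the immunoproteasome were at or near the limit of counting, apart from Psmb10. Psmb8 had 5, 0, 0, 2, 0, 0 and 2 reads in order of time, 9 in all, against 842 to 2616 reads of its partner Psmb5. In the libraries without a read, a floor of 3 reads puts Psmb5 at least 599-fold (2 h), 509-fold (4 h), 950-fold (14 h) and 848-fold (24 h) higher per kilobase; elsewhere Psmb8 stood at 0.156% (0 h), 0.0539% (6 h) and 0.0421% (48 h) of Psmb5, with exact 95% Poisson intervals of 0.0508 to 0.365%, 0.00654 to 0.195% and 0.00511 to 0.153%. Psmb9 had 13, 2, 0, 16, 4, 2 and 3 reads, which gave 0.218% ± 0.189 (SD over the 7 libraries) of the level of Psmb6. The libraries at 0 and 6 h, which had the most reads of Psmb9, gave 0.477% (0.251 to 0.807%) and 0.475% (0.269 to 0.765%). The 48 h library gave 0.0817% (0.0167 to 0.237%), an interval just below these and overlapping those at 2, 4, 14 and 24 h. How many of all genes show such a gap is not given here. These intervals cover counting error only, and no test between single libraries was made.

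Psmb10 was the more abundant of the immunoproteasome subunits and the only one with a mean value of at least 1. It had 25, 17, 20, 59, 43, 37 and 99 reads, and its value was 0.631, 0.838, 1.07, 1.62, 1.77, 1.40 and 2.30 in time order. Each library from 6 h on was higher than each of the libraries at 0, 2 and 4 h. How many of all genes show such a separation is not given here, which holds for the similar orders described below too. As a share of the level of Psmb7, it went from 0.768% (0.498 to 1.14%) at 0 h to 2.92% (2.38 to 3.57%) at 48 h, with a mean of 1.53% ± 0.746 (SD, 7 libraries). The fitted log2 change from 0 to 48 h, on the scale of log2 of the value plus 1, was 0.96 ± 0.21 (SE), and it did not pass the limma test over all genes (adjusted p = 0.0718; between 0.0515 and 0.523 over 20 alternatives). With the GC trend of each library removed, as defined below, the change was 0.49 (adjusted p = 0.207 by limma), and a limma-voom fit on the recovered reads gave 1.71 (adjusted p = 0.0910). The transcript of Psmb10 has 56.5% G and C, behind only Psmd3 and Psmb5 among the tested members.

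**Figure D2:**
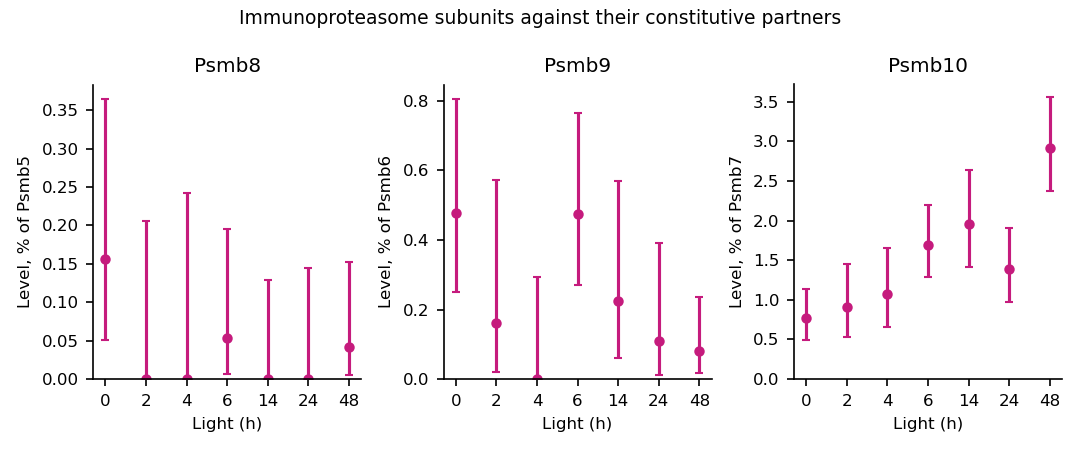
Level of Psmb8, Psmb9 and Psmb10 as a percentage of the level of the constitutive subunit each replaces, in the 7 libraries (time points drawn at equal steps); bars are exact 95% Poisson intervals for the reads of the immunoproteasome gene. Psmb10 stands at 0.768% of Psmb7 at 0 h and 2.92% at 48 h, while Psmb8 and Psmb9 stay under 0.5% throughout.

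The partners that these subunits replace were abundant throughout. Psmb5, the chymotrypsin-like subunit, had values of 30.7, 33.6, 30.9, 38.7, 44.7, 36.4 and 42.0. Psmb6, the caspase-like subunit, had 48.4, 43.3, 46.4, 65.0, 51.6, 48.6 and 60.1, and Psmb7, the trypsin-like subunit, had 3.46, 3.89, 4.19, 4.02, 3.82, 4.23 and 3.32. Psmb5 was lowest and Psmb7 next to its lowest at 0 h. Fitted changes were 0.46 ± 0.26 (SE) for Psmb5, 0.28 ± 0.28 for Psmb6 and 0.00 ± 0.22 for Psmb7, with adjusted p of 0.312, 0.582 and 0.998 by limma. Mean levels of 10 listed genes of antigen presentation ran from 0.0739 for Nlrc5 to 21.4 for B2m. Of the 10, 5 had a mean value of at least 1 (6411 of 20294 over all genes). None of the 5 was called by limma, and 1 had an unadjusted p under 0.05. Over all genes 0.359% were called and 21.5% had such a p. H2-K1, a class I heavy chain, had values of 4.91, 3.59, 4.31, 7.10, 6.74, 6.49 and 7.71 (0.75 ± 0.30 SE, adjusted p = 0.193 by limma), and the peptide transporter gene Tap1 lay between 0.0407 and 0.627.

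Upstream sequence of one such pair is shown because regulation of these genes is usually discussed through it; the data here do not bear on binding. RefSeq (GRCm38.p6) gave a promoter for 42 of the 50 genes, and the 250 bases before each start were searched on both strands. The core of the antioxidant response element, TGACNNNGC, was found in 5 of 42 members (11.9%) and in 10.2% of all promoters, and CCAAT in 16 of 42 (38.1%) and 33.8%. The gamma-activated site TTCNNNGAA was found in 2 of 42 (4.8%) and 7.0%, and the interferon-stimulated core, GAAA then NN then GAAA, in 3 of 42 (7.1%) and 3.0%. Members were counted once per gene and the background over 32851 promoters, so the shares do not have like denominators. A match is only a run of letters. The gamma-activated matches were in Psmb8 and Psmg1, and the interferon-stimulated ones in Psmb3, Psmd4 and Psmd9. The 120 bases before the start of Psmb9 held no match to either, nor to the antioxidant core. The 120 bases before the start of Psmb5 (chr14:54617996-54618115, minus strand) and Psmb8 (chr17:34198075-34198194, plus strand) follow, with TGACNNNGC and TTCNNNGAA respectively in capitals.
Psmb5: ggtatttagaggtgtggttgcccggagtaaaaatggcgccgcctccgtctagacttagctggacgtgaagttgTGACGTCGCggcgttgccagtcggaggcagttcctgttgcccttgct
Psmb8: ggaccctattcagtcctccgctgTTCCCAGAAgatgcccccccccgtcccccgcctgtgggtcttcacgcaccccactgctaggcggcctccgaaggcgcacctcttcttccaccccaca

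No proteasome gene passed the test of a trend with time. Of the 46 tested, 0 rose and 0 fell at an adjusted p under 0.05 (limma), where 0.296% of all 6411 tested genes rose and 0.0624% fell (0.359% in either direction). At an unadjusted p under 0.05 there were 5 of 46 (Psmb10, Psmb11, Psmg3, Psma3 and Psmd12), and 21.5% of all genes. None was called in the limma-voom fit on reads, in which 48 were tested, 9 had an unadjusted p under 0.05 and 3.01% of 13506 genes were called (2.23% rose and 0.785% fell, with 23.4% at an unadjusted p under 0.05). None was called in any of the other alternatives run, each library left out in turn included. The median fitted log2 change was -0.10 (28 negative and 18 positive) against 0.01 over all genes, and without the 48 h library it was 0.07 (17 negative and 29 positive). These tests take 7 single libraries as points on a line, so the p-values measure scatter about it, which may be technical.

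Without a fitted line, the 48 h library stood out as the lowest. It was the lowest of the 7 libraries for 25 of the 46 members, against 26.5% of all genes, and it was lower than the 0 h library for 30 and higher for 16. The median log2 ratio of 48 h to 0 h was -0.20 over members and 0.00 over all genes. Log2 ratios and fold changes between libraries, here and below, are on log2 of the value plus 1, which shrinks changes of low values. Of 24 members whose value reached 10 at 0 h or at the later time, the assembly chaperone Psmd5 and the lid subunit Psmd12 were at least 2-fold lower at 48 h (7.76% of all genes passing that minimum) and 0 were at least 2-fold higher (15.8%). Psmd5 and Psmd12 pass that minimum only through the 0 h library, where they were high. Over all 46 members with a mean of at least 1, 4 were at least 2-fold lower on this scale (Psmd5, Psma3, Psmd12 and Psmb11, with 5.38% of all genes) and 1 higher (Psmb10, with 7.89%). Psmd14, with a value of 1.94 at 0 h and 0.914 at 48 h, had a log2 ratio of -0.62 on it and was not counted. Psmd5 was also the member at least 2-fold lower at 6 h (1.66% of all genes), and 0 were 2-fold higher there (5.85%). At 2, 4, 14 and 24 h, 0 of 24 were at least 2-fold higher, where 3.77%, 1.78%, 3.9% and 4.77% of all genes were, and 0 were 2-fold lower, where 1.82%, 0.642%, 3.17% and 2.39% were.

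**Figure D3:**
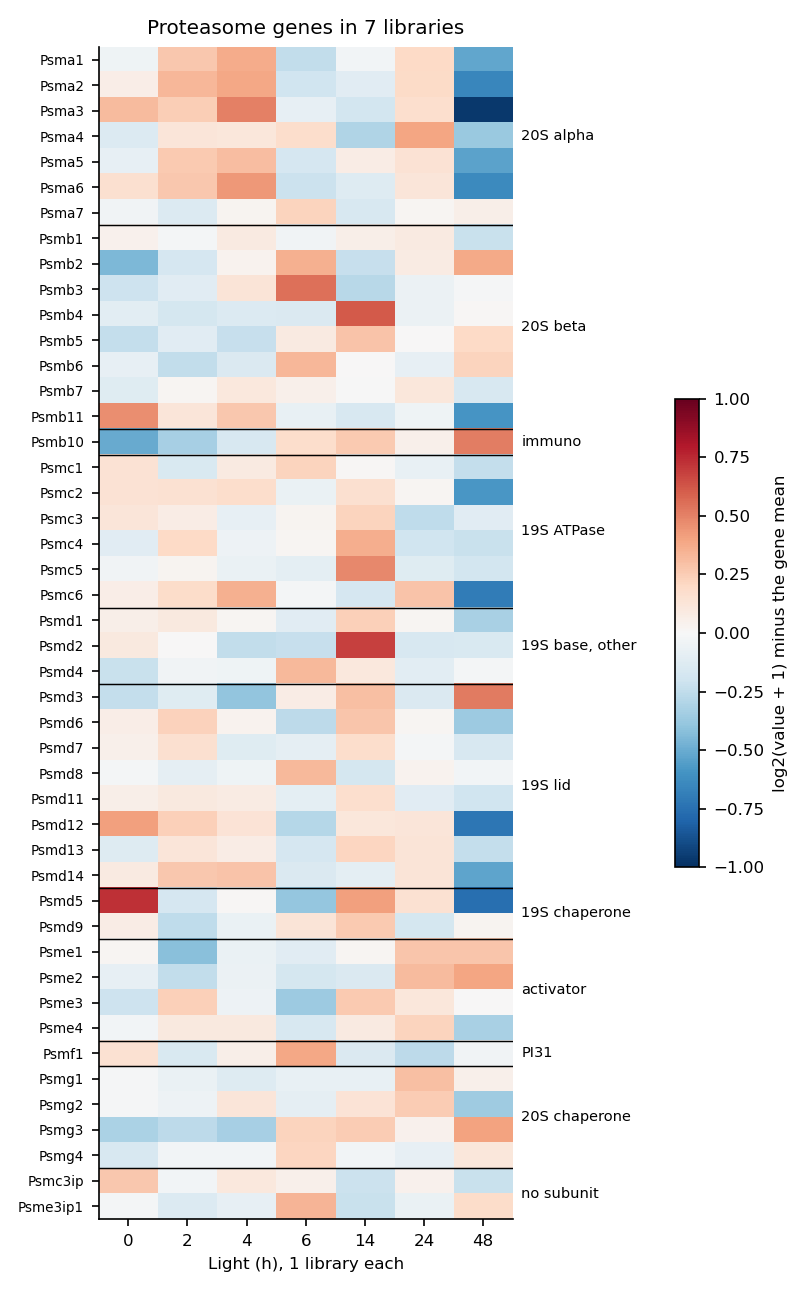
Deviation of log2(value + 1) from the mean of each gene over the 7 libraries, for the 46 members with a mean value of at least 1, grouped by role; red is above and blue below the mean of the gene. The 48 h column is blue for Psma1 to Psma6 and for 16 of the 17 subunits of the 19S particle, and the 14 h column is red for most 19S rows.

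The alpha ring was mostly low at 48 h. There, 6 of the 7 somatic alpha subunits were lower than at 0 h and at their lowest, where 26.5% of all genes were lowest. The median log2 ratio of the 7 was -0.47. At 4 h, 7 of 7 were above their own mean, where 43.9% of all genes were. Psma3, with the most negative fitted change, had values of 8.51, 8.04, 9.79, 6.19, 5.70, 7.57 and 2.91. The 48 h value was the lowest by a wide margin, and the fitted change was -1.04 ± 0.37 (SE, adjusted p = 0.160 by limma; between 0.063 and 0.883 over 21 alternatives). It was -0.44 without the 48 h library and -0.44 with the GC trend removed. Psma2 and Psma6 had fitted changes of -0.61 (adjusted p = 0.328) and -0.69 (adjusted p = 0.246) in the same limma fit. Psma7 was the exception in the ring, with 29.2, 27.1, 30.5, 35.1, 26.7, 30.4 and 31.3 and a fitted change of 0.08 ± 0.26. Its transcript has 51.6% G and C, the highest of the ring, where Psma1 to Psma6 have 39.4 to 49.2%. Germ-cell Psma8, with a value of at most 0.272, was not in the fit.

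In the constitutive beta ring most genes were higher at 48 h than at 0 h. Of Psmb1 to Psmb7 these were 5 (median log2 ratio 0.19), and 6 of 7 had a positive fitted change, with that of Psmb7 at 0.00. Psmb2 had 4.14, 5.26, 6.21, 7.98, 4.99, 6.46 and 8.12, lowest at 0 h and highest at 48 h (0.62 ± 0.29 SE, adjusted p = 0.246 by limma). Psmb4, the member with the highest value, had 79.4, 75.7, 78.0, 77.5, 131.6, 82.5 and 86.2: the 14 h library alone stood apart, and the other 6 lay within 75.7 to 86.2. Psmb11 of the thymus form had 4.78, 3.56, 4.05, 2.98, 2.74, 3.05 and 1.78, highest at 0 h and lowest at 48 h (-0.90 ± 0.24 SE, adjusted p = 0.0944 by limma). With the GC trend removed its change was -0.97 (adjusted p = 0.0860 by limma).

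The 19S particle was lowest at 48 h and often highest at 14 h. Of its 17 subunits, 15 were lower at 48 h than at 0 h (3187 of 6411 over all genes) and 12 had their lowest value there (26.5% of all genes). At 48 h 16 lay below their own mean, where 49.5% of all genes did. Fitted changes were negative for 15 of 17 (median -0.24), and without the 48 h library for 9 of 17 (median -0.01). At 14 h, 14 of 17 lay above their own mean (all genes 53.3%) and 9 of 17 had their highest value, against 15.3% of all genes and 2 of the 14 core subunits. With the GC trend removed, the median deviation of the 17 was 0.20 at 14 h and -0.20 at 48 h, against 0.03 and 0.00 over all genes. Whether the 19S genes differ from other genes in these libraries beyond this description was not tested, since each time is 1 library.

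Among the ATPases, all 6 had a negative fitted change (49.5% of all genes) and 5 were lowest at 48 h (26.5% of all genes). Without the 48 h library 4 of the 6 fitted changes were negative. Psmc3 had the highest mean value of the 6, though its mean level (151) was below those of Psmc4 (217) and Psmc1 (165). Its values were 49.5, 47.9, 42.7, 46.3, 53.1, 37.8 and 41.8 (-0.24 ± 0.26 SE). Psmc6 had 5.14, 5.63, 6.47, 4.78, 4.20, 6.13 and 2.59 (-0.57 ± 0.34 SE, adjusted p = 0.346 by limma). Psmc5 had 21.2, 22.3, 20.9, 20.3, 30.8, 20.1 and 19.1, with the 14 h library above the other 6, which lay within 19.1 to 22.3. Psmc4 had its highest value at 14 h too (47.7, elsewhere 31.5 to 42.5). Psmc2 had a fitted change of -0.54 and Psmc1 of -0.27, neither called.

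Of the base subunits without ATPase activity, the scaffold Psmd2 stood out most at 14 h. Its values were 15.0, 14.0, 11.6, 11.7, 22.9, 12.4 and 12.4, so 14 h lay above all others and the rest within 11.6 to 15.0; Psmd2 and Psmc4 were picked after their values were seen. After GC removal, the 14 h library against 0 h gave log2 ratios of 0.51 for Psmd2, 0.43 for Psmc5, 0.60 for Psmb4 and 0.30 for Psmc4, against 0.58, 0.52, 0.72 and 0.48 as deposited. Psmd1, the other scaffold, had 3.25, 3.38, 3.15, 2.78, 3.81, 3.15 and 2.26, and the ubiquitin receptor Psmd4 had 15.6, 17.9, 17.8, 23.3, 19.9, 17.0 and 18.0 with its highest value at 6 h. Their fitted changes were -0.24 ± 0.24 and 0.14 ± 0.27 (SE).

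**Figure D4:**
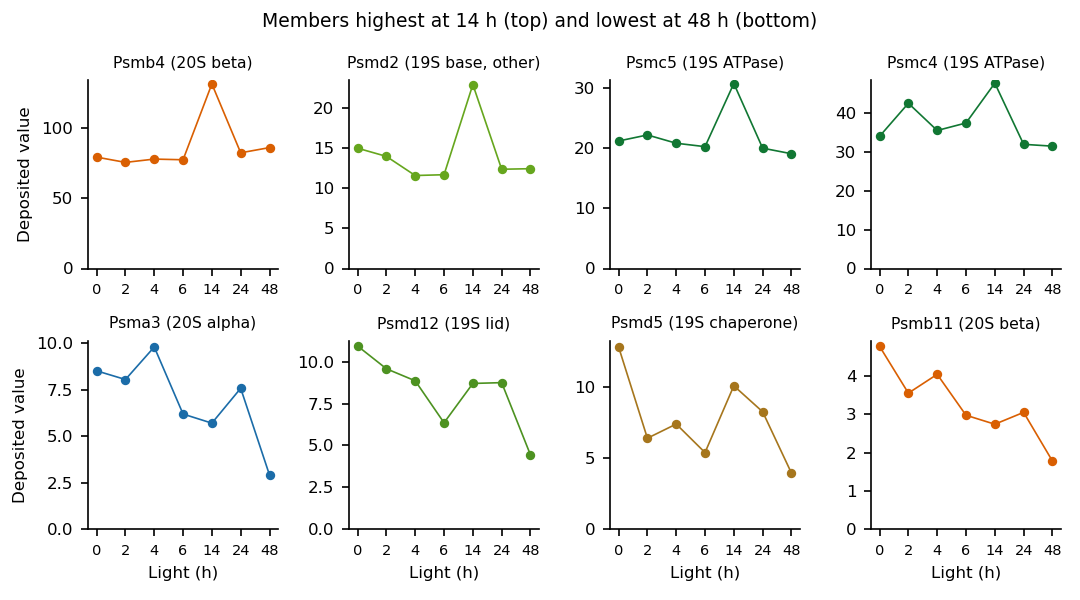
Deposited value of 8 members in the 7 libraries (time points drawn at equal steps, 1 library each, axes from 0). In the top row Psmb4, Psmd2, Psmc5 and Psmc4 are highest at 14 h (131.6, 22.9, 30.8 and 47.7), and in the bottom row Psma3, Psmd12, Psmd5 and Psmb11 are lowest at 48 h (2.91, 4.44, 3.94 and 1.78).

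In the lid, Psmd3 and Psmd12 had opposite courses. Psmd12 had 10.95, 9.59, 8.87, 6.36, 8.71, 8.76 and 4.44, lowest at 48 h (-0.82 ± 0.32 SE, adjusted p = 0.185 by limma; -0.40 without the 48 h library). Psmd3 had 19.4, 21.0, 17.2, 24.3, 28.5, 20.7 and 33.4, highest at 48 h (0.65 ± 0.31 SE, adjusted p = 0.251 by limma). Their transcripts have 44.3% and 58.3% G and C, and with the GC trend removed the changes were -0.46 and 0.08. Psmd8, the most abundant lid gene by value, had 40.6, 38.6, 39.8, 51.8, 36.2, 42.1 and 40.3. Psmd14, the deubiquitinase, lay between 0.914 at 48 h and 2.37 at 4 h (-0.53, or -0.09 with the GC trend removed). In all, 6 of the 8 lid genes were lowest at 48 h (26.5% of all genes).

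The order of the 48 h to 0 h ratios followed GC content within the proteasome as it did over all genes. Across the 46 members, log2 ratios between the 48 h and 0 h libraries went with the GC content of the transcript (Pearson r = 0.75, Spearman rho = 0.81), and across 6386 tested genes r was 0.62 and rho 0.68; these are descriptions across genes, which are not independent replicates. The 15 members of lowest GC content (37.0 to 47.9%) were all lower at 48 h, with a median log2 ratio of -0.47, and in all genes within the same GC limits 86.8% were lower and the median was -0.49. The 16 in the middle (48.7 to 52.4%) had a median of -0.17, 10 of them lower, and all genes there -0.02 with 53.2% lower. Of the 15 of highest GC content (52.7 to 58.3%), 10 were higher, with a median of 0.26, and 5 lower; all genes there had a median of 0.35 with 21.8% lower. The same relation was present across members at 6 h (r = 0.57) and 14 h (r = 0.53) and weak at 24 h (r = 0.11). Over all genes r was 0.66, 0.51 and 0.12 at these times. At 2 h and 4 h it was slight and of the other sign across members (r = -0.04 and -0.19), where over all genes r was 0.26 and 0.17.

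The GC trend of each library, a smooth curve of deviation on GC content over all genes with a mean of at least 5, was then removed. It was subtracted in full from genes of lower mean too, whose changes the added 1 shrinks, so these may be overcorrected. Psmb8, with 9 reads in all, went from a 48 h to 0 h log2 ratio of -0.09 to -0.64. The relation across members became r = -0.12, and that over all genes became r = -0.17, so it was turned past 0. The difference between the alpha and beta rings at 48 h became slight, with median log2 ratios of -0.07 and -0.11 where they had been -0.47 and 0.19. The 19S subunits kept a median of -0.31 (-0.25 before), against -0.07 over all genes. Psma2 and Psmc6, both lower at 48 h as deposited, had positive changes of 0.08 and 0.27, and Psmb5 went from 0.46 to -0.01. In all, 15 of the 46 fitted changes turned sign, among them those of Psma7 (-0.05), Psmb6 (-0.14), Psmd4 (-0.21) and Psme4 (0.27). In this fit 0 of 46 members and 0% of all genes were called by limma, with 3 members and 18.3% of all genes at an unadjusted p under 0.05. Whether the GC trend arises in library preparation or in the cells was not tested.

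**Figure D5:**
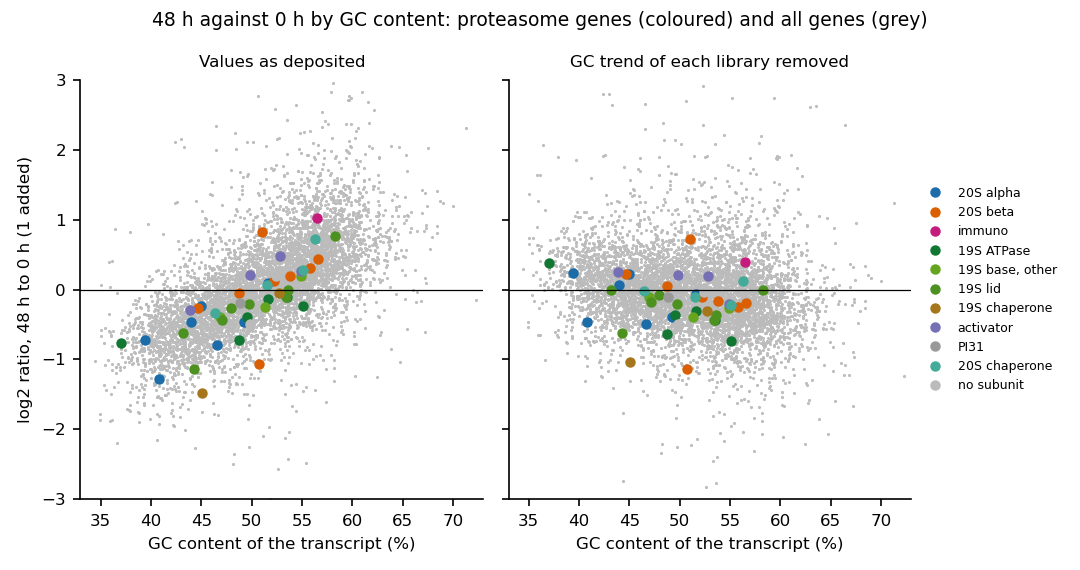
Log2 ratio of the 48 h to the 0 h library (1 added to each value) against GC content of the transcript, as deposited (left) and with the GC trend of each library removed (right); coloured points are the 46 members by role, grey points are all tested genes, and genes beyond a ratio of 3 either way are not drawn. On the left the members follow the cloud of all genes (r = 0.75), and on the right they do not slope with GC content (r = -0.12).

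None of the activators was called. Psme1 and Psme2, partners in an interferon-inducible ring, had 25.1, 18.3, 23.5, 22.8, 25.1, 30.1 and 30.2, and 4.15, 3.59, 4.24, 3.84, 3.93, 5.78 and 6.17. Both were lowest at 2 h and highest at 48 h. Fitted changes were 0.46 ± 0.28 and 0.54 ± 0.26 (SE), neither past the limma test (adjusted p = 0.350 and 0.252), and 0.11 and 0.33 with the GC trend removed. The 48 h library of Psme1 was then below 0 h (log2 ratio -0.21, from 0.26 as deposited). Psme3, the nuclear activator, was the highest of the activators with a mean level of 122 and values of 37.9, 52.1, 42.4, 34.1, 53.0, 47.8 and 44.2, without a direction in time (0.21 ± 0.30). Psme4, a large activator of nuclear proteasomes, had 3.60, 4.02, 4.02, 3.19, 3.98, 4.47 and 2.73 (-0.13 ± 0.26). Psmf1, which binds the core and is known as PI31, had 3.27, 2.46, 2.99, 4.01, 2.48, 2.21 and 2.75. The gene of Psme1 overlaps Emc9, that of Psme4 Erlec1 and that of Psmf1 Tmem74b in the reference, and whether counting used strand is not known, so reads of the neighbours may be included.

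Assembly chaperones were present as well. Those of the core, Psmg1 to Psmg4, had mean levels of 52.0, 41.6, 18.4 and 27.6. Psmg3 had 3.66, 3.84, 3.63, 5.78, 5.92, 4.98 and 6.69, lowest at 4 h and highest at 48 h (0.73 ± 0.26 SE, adjusted p = 0.159 by limma, and 0.28 with the GC trend removed). Psmg1 had 4.85, 4.63, 4.39, 4.60, 4.62, 6.26 and 5.13. Psmg2 had 3.43, 3.31, 3.85, 3.20, 3.93, 4.33 and 2.50, and Psmg4 0.787, 0.959, 0.963, 1.32, 0.961, 0.892 and 1.17. None of the 3 had an unadjusted p under 0.05 (limma). Among the chaperones of the 19S base, Psmd5 varied most, with 12.8, 6.40, 7.40, 5.39, 10.1, 8.26 and 3.94. It was highest at 0 h and again high at 14 h, and its lowest value at 48 h left a log2 ratio of -1.04 to 0 h with the GC trend removed (-1.48 before; fitted change -0.83 ± 0.43 SE, adjusted p = 0.285 by limma). Without the 0 h library the fitted change was -0.33, and without 48 h -0.37. Psmd9 had 1.70, 1.14, 1.44, 1.80, 2.06, 1.26 and 1.60, and Psmd10 lay between 0.697 and 1.20. The genes that match by letters alone had 7.67, 6.06, 6.73, 6.43, 5.20, 6.40 and 5.17 (Psmc3ip) and 1.94, 1.72, 1.82, 2.78, 1.56, 1.85 and 2.39 (Psme3ip1).

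Genes that work with the proteasome but lie outside these families gave no call either. Of 32 listed (the receptor Adrm1, the deubiquitinases Uchl5 and Usp14, ubiquitin genes and regulators, among others), 27 were tested, 0 were called by limma and 17 had a negative fitted change (49.5% of all genes); 7 had an unadjusted p under 0.05 (21.5% of all genes). Zfand5, which binds the 26S proteasome and stimulates it, had 9.41, 8.72, 8.75, 8.45, 4.58, 5.39 and 4.20, highest at 0 h and lowest at 48 h. Its fitted change was -1.13 ± 0.27 (SE, adjusted p = 0.0850 by limma), it was called, of all fits run, only by limma-voom on reads (-1.29, adjusted p = 0.0498; 1 of 30 partners, and 3.01% of all genes, were called there), and with the GC trend removed it was -0.47 (adjusted p = 0.474). Nfe2l2, a factor that activates proteasome genes under oxidative stress, had 8.09, 8.46, 8.54, 8.07, 3.71, 5.27 and 4.67 (-0.95, adjusted p = 0.153 by limma). Akirin2, needed to bring proteasomes into the nucleus, was highest at 0 h (8.63, then 4.22 to 5.14), with a fitted change of -0.70 (adjusted p = 0.171 by limma).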

How the data were processed

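Per the labels' protocols, RNeasy served for RNA and Lexogen SENSE for libraries. Reads were aligned with Bowtie2 to mm9, per the submitters' processing notes; for counting, strand and scaling the sources used here give nothing. The deposited table of the authors gives 1 number per RefSeq transcript and library, taken as a score without a named unit. Multiplied by gene span and a library factor, 91.3% to 93.7% of values of 2 to 20 reads (genes with 1 RefSeq transcript) lay within 0.1 of a whole number, which gave the depths and recovered reads; they are approximate, since spans came from GRCm38. Of 27353 transcripts, 26245 had a symbol; for Psmd10, Psme2 and Psmg4 the higher of 2 transcripts was used. Pseudogene copies (Psma5, Psmb5, Psmb6, Psmb7) and overlapping genes may share reads.

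Log2 of the value plus 1 was fitted on log2 of hours plus 1 with limma 3.58.1 (R 4.3.3; lmFit, eBayes with trend; 5 residual degrees of freedom) over 6411 genes with a mean of at least 1, Benjamini-Hochberg adjusted over all of them, and called under 0.05. A change is the fitted difference from 0 to 48 h. The GC trend was modelled by a natural spline (df 5). The limma-voom fit took genes with at least 10 reads in at least 3 libraries. Ratios of single libraries have no test. Named genes were those called, the extremes of each role group, the immunoproteasome, Psme, Psmf and Psmg genes, and up to 4 genes of each other list with the largest fitted changes among those with a mean of at least 5. Values not being counts, the planned test for normalized values applied. Alternatives were other pseudocounts, filters, scalings and time scales, summed transcripts, and each library left out in turn. Tables were made in Python 3.11.15 with pandas 2.3.3 and scipy 1.17.1. A listed partner gene that this rule names is not reported here. Scripts were checked on simulated data. Members, lists and rules were chosen with earlier results of these data known.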

Additional observations from a re-analysis of the deposited data

How the results depend on the processing

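No member was called under any of 21 alternatives. No paired analysis was possible because each time point has 1 library and no replicate number. The count over all genes (19 rose and 4 fell) was 36 and 7 with a pseudocount of 0.1, 0 and 0 with 5 or with no filter, 1 gene fell with a mean of at least 5, 1 and 0 with quantile normalization, 162 and 28 on linear hours, 43 and 12 on ranks of time, 301 and 106 in the limma-voom fit on reads and 0 and 0 with the GC trend removed. Leaving out 1 library gave 1 to 52 rising and 0 to 24 falling genes. Chosen after seeing the data were limma-voom with the GC trend removed (225 and 73), the fit on the 5 libraries other than 6 h and 48 h (0 and 0) and GC removal without 48 h (0 and 0). The median member change of -0.10 was -0.22 with quantile normalization or median scaling. Median scaling removes the median deviation of genes from their own mean, which was -0.092 at 0 h and 0.083 at 48 h (log2). The median member change ran from -0.21 (without 0 h) to 0.07 (without 48 h). It was 0.07 without 6 h and 48 h, and 0.02 with GC removal without 48 h. With the GC trend removed, alone, on reads and without 48 h, signs turned for Psma2 (0.08, 0.16, 0.16), Psmc6 (0.27, 0.27, 0.37), Psma7 (-0.05, -0.06, -0.08), Psmb6 (-0.14, -0.18, -0.10) and Psme4 (0.27, 0.27, 0.35), for Psmb5 (-0.01, -0.05) and Psmd4 (-0.21, -0.24) in the first pair of these fits, and for Psmd1 (0.08) in the last. With quantile normalization they turned for Psma7 (-0.10), Psmb7 (-0.03), Psmd4 (-0.07) and Psme3 (0.00), with median scaling for Psma7 (-0.06) and Psmb7 (-0.11), on linear hours for Psmb7 (-0.12) and Psmd4 (-0.01), for Psmb7 on ranks (-0.01) and reads (0.00), and without 6 h and 48 h for Psmd1 (0.06) and Psme4 (0.23). Leaving out 1 library gave -0.20 to 0.21 for Psmb7, -0.35 to 0.04 for Psmd1, -0.11 to 0.25 for Psmd4 and -0.29 to 0.20 for Psme4. The cause was not tested. Among members whose value reached 10, on log2 of the value plus 1, 1 was at least 2-fold lower at 48 h with the GC trend removed. Against the mean of 0, 2 and 4 h, 0 were. Psma3 (8.51, 8.04 and 9.79 at these times, 2.91 at 48 h) lies outside that minimum. So does Psmb11, with a 48 h to 0 h log2 ratio of -1.14 after GC removal. Over members with a mean of at least 1 (added after seeing the data), 4 were lower and 1 higher as deposited. Psmb10 was 36.3% of Psmb7 in deposited values, which divide by gene span. Reads limit Psmb8 and Psmb9, and single libraries limit the rest.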
